A study of Mus musculus with 18 samples.

Results

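Gene expression of the femoral fracture callus was compared between day 3 and day 1 after fracture in old mice, using 6 of the 18 arrays of the series, 3 arrays for each day. The arrays were chosen by their labelled age and day, and every probe set of the deposited signal table entered the comparison. Old mice were female retired breeders of 8 months. The other arrays came from old mice on day 5 and from young females of 6 weeks on days 1, 3 and 5, with 3 arrays a group. All groups had a fractured femur and no unfractured bone was analysed here. The sample fields name the strain BALB/c while the series' design text names a C57BL/6 line, so the strain is not settled, and nothing says whether the 3 arrays of a group were separate animals. The p-values therefore reflect only how far these arrays differ, which may be technical variation, and having 3 arrays a group limits precision throughout.

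Fracture healing begins with bleeding, a clot and inflammation, in which neutrophils arrive first and monocytes follow and become macrophages that clear debris. Skeletal progenitors of the periosteum and marrow then divide and lay down a collagen-rich granulation tissue. Later they form bone directly beside the fracture and cartilage in its gap, and osteoclasts resorb and remodel both. Day 1 falls in the inflammatory phase of this sequence and day 3 at the start of matrix formation, so the comparison asks what changed between them.

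Signals are given as log2(signal + 16) after quantile normalization, on which the array median is 6.03. A difference is day 3 minus day 1, a value of 1 is a 2-fold change, and ± after a difference is its standard error from the fit. A gene was called when limma's moderated test gave an adjusted p under 0.05 over all 27746 probe sets tested. Because 16 was added to the signal, changes of genes near or below the array median are understated. The sample is bulk tissue, so a higher signal from more cells of a type and from more RNA per cell cannot be told apart.

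Callus dissected at this stage contained several tissues. Ibsp, which encodes the bone matrix protein bone sialoprotein, measured 10.18, 11.71 and 12.02 on the day 1 arrays, well above the array median. Skeletal muscle was abundant, and its 35 fibre genes averaged 13.14, 12.28 and 12.67 on day 1 and 11.13, 10.83 and 11.41 on day 3. Of 21 cartilage genes measured, 10 lay below the array median on all 6 arrays. On every one of the 18 arrays the Y chromosome genes Eif2s3y, Uty and Kdm5d were below the median, and the labels give females.

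Several technical values also differed between the days. The ratio of 3' to 5' Actb signal, which rises as RNA degrades, ran from 2.27 to 2.67 on day 1 and from 1.37 to 1.60 on day 3. The spiked-in cre transcript of bacteriophage P1, a hybridisation control, gave 28473 to 40190.4 signal units on day 1 and 9109.8 to 17552 on day 3. Before normalization the array medians were 68.05 to 72.38 signal units on day 1 and 35.99 to 45.77 on day 3. None of these ranges overlapped, and their part in the results below was not tested. Within day 1, replicate 1 had less neutrophil and cell cycle signal than replicates 2 and 3, which is given beside the genes concerned.

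Erdr1 and Mid1, which map to the mouse pseudoautosomal region and its boundary, shared a pattern over the groups that did not follow the days alone. Erdr1 measured 11.86, 12.32 and 11.89 on day 1 and 6.49, 6.86 and 7.78 on day 3. In old mice it stayed at 5.98 to 7.09 on day 5, and on the 9 arrays of young mice it lay between 10.98 and 13.11. Mid1 measured 9.48, 10.10 and 9.79 on day 1, 6.71, 6.41 and 6.23 on day 3 and 6.50 to 6.61 on day 5, against 8.92 to 10.47 on the young arrays. Both genes were thus high on old day 1 and all young arrays, and low on the 6 later arrays of old mice. Whether the old mice of day 1 and of the later days came from the same stock cannot be told from the labels. If they did not, stock and day cannot be told apart in any difference reported here between old day 1 and old day 3, nor in the comparison with young mice.

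limma called 3918 of 12921 genes, 30.3% of those tested, and for 45.1% of genes the 3 arrays of one day all lay past those of the other. Of all genes tested, 2375 (18.4%) were called higher and 1543 (11.9%) lower on day 3, and the median difference over all genes was 0.056. The counts of every list below are to be read against these shares of all genes. A difference of at least 1 was reached by 1278 of the higher and 775 of the lower genes, of at least 2 by 163 and 90, and of at least 3 by 21 and 10. On probe sets 29.8% were called, 4915 higher and 3351 lower, so that 59.5% of calls were higher. The balance depended on the scaling: 41.7% of calls were higher with the values as deposited, where the median of all probe sets was -0.10, and 85.9% with arrays centred on their medians, where it was 0.47. Counts of lists that this median centring or the deposited scale moves by over 1.5 times are given beside the lists, and most lists had more rises under median centring. Without old day 3 replicate 2 the count of probe sets called went from 8266 to 5177.

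**Figure D1:**
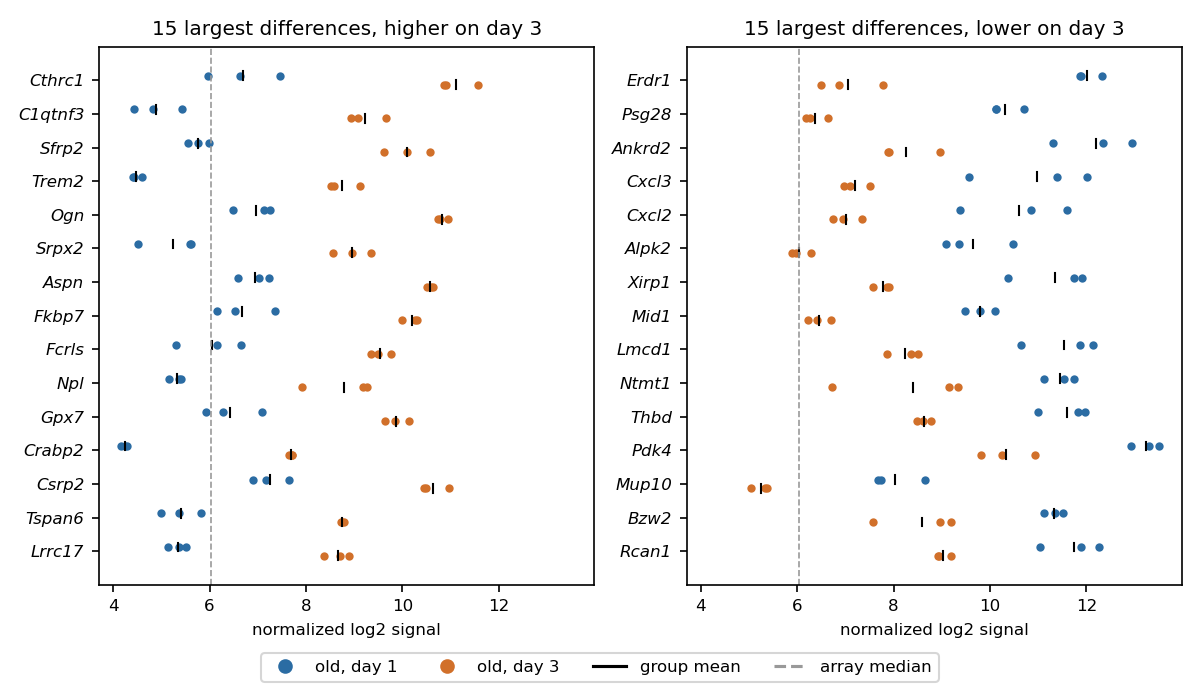
Normalized log2 signal of the 15 genes with the largest differences in each direction, with 1 point per array, black ticks for the mean of 3 arrays and a dashed line at the array median of 6.03. Day 1 and day 3 arrays did not overlap for any gene shown, which the choice of these genes required, and many of the genes that were higher on day 3 were below the array median on day 1.

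The 15 genes with the largest rises included secreted proteins and macrophage genes. Cthrc1, a secreted protein of activated fibroblasts and osteoblasts, measured 7.46, 5.96 and 6.64 on day 1 and 11.57, 10.90 and 10.86 on day 3, a 21.6-fold rise. C1qtnf3, a secreted protein related to C1q and adiponectin, rose 20.1-fold from 5.42, 4.83 and 4.43 to 9.67, 8.93 and 9.07. Sfrp2, a secreted Wnt modulator, measured 5.55, 5.76 and 5.99 and then 10.09, 10.57 and 9.62, so that it went from below the array median to far above it. Trem2, a lipid-sensing receptor of macrophages, went from 4.42, 4.59 and 4.40 to 8.58, 9.13 and 8.52. The day 1 values of Trem2 and C1qtnf3 lay below the array median and near the floor set by the added 16, so their folds of 19.3 and 20.1 depend on that setting. The adjusted p was 1.26e-07 for Trem2, 3.58e-07 for Cthrc1, 2.97e-05 for C1qtnf3 and 2.1e-06 for Sfrp2.

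The other genes of this group had varied roles. Fkbp7 and Gpx7 encode a folding enzyme and a peroxidase of the endoplasmic reticulum and rose by 3.51 ± 0.31 and 3.46 ± 0.24. Crabp2, a carrier of retinoic acid, measured 4.17, 4.28 and 4.25, at the floor set by the added 16, and then 7.70, 7.64 and 7.70. Csrp2, a LIM-domain protein of smooth muscle and mesenchymal cells, rose by 3.40 ± 0.21, the tetraspanin Tspan6 by 3.36 ± 0.29 and the leucine-rich repeat protein Lrrc17 by 3.32 ± 0.30. Fcrls, an Fc receptor-like gene of macrophages, and Npl, which degrades sialic acid, rose by 3.50 ± 0.34 and 3.47 ± 0.35.

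Among the 15 genes with the largest falls, many belonged to muscle or to the first response to injury. Ankrd2, a stretch-responsive muscle gene, measured 12.94, 11.31 and 12.35 on day 1 and 7.90, 7.88 and 8.97 on day 3. Xirp1, an actin-binding protein of injured muscle, fell by 3.57 ± 0.73. The alpha-kinase gene Alpk2 fell by 3.59 ± 0.50, and Lmcd1, a LIM protein of muscle, fell by 3.30 ± 0.49. Pdk4, which restrains glucose oxidation in fasting muscle, fell by 2.91 ± 0.63. The calcineurin inhibitor Rcan1 measured 12.27, 11.04 and 11.90 and then 8.94, 9.20 and 8.92, with no overlap. Thbd, the thrombin receptor of endothelium that starts the anticoagulant pathway, fell by 2.97 ± 0.26.

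Other large falls were in genes of no single function. Psg28, a pregnancy-specific glycoprotein gene, measured 10.71, 10.12 and 10.13 on day 1 and 6.19, 6.26 and 6.63 on day 3, and Mup10, a major urinary protein gene, 8.65, 7.68 and 7.73 and then 5.33, 5.03 and 5.37. Bzw2 fell by 2.75 ± 0.43 on its brightest probe set, while its other 2 probe sets, at -0.46 and -0.08, were not called. The 2 probe sets of Ntmt1 were called in opposite directions, at -3.06 ± 0.55 and 1.74 ± 0.25, so no direction is given for that gene. Psg23 and Psg21 fell by 1.89 ± 0.23 and 1.53 ± 0.30, and their near-identical copies can share probes.

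**Figure D2:**
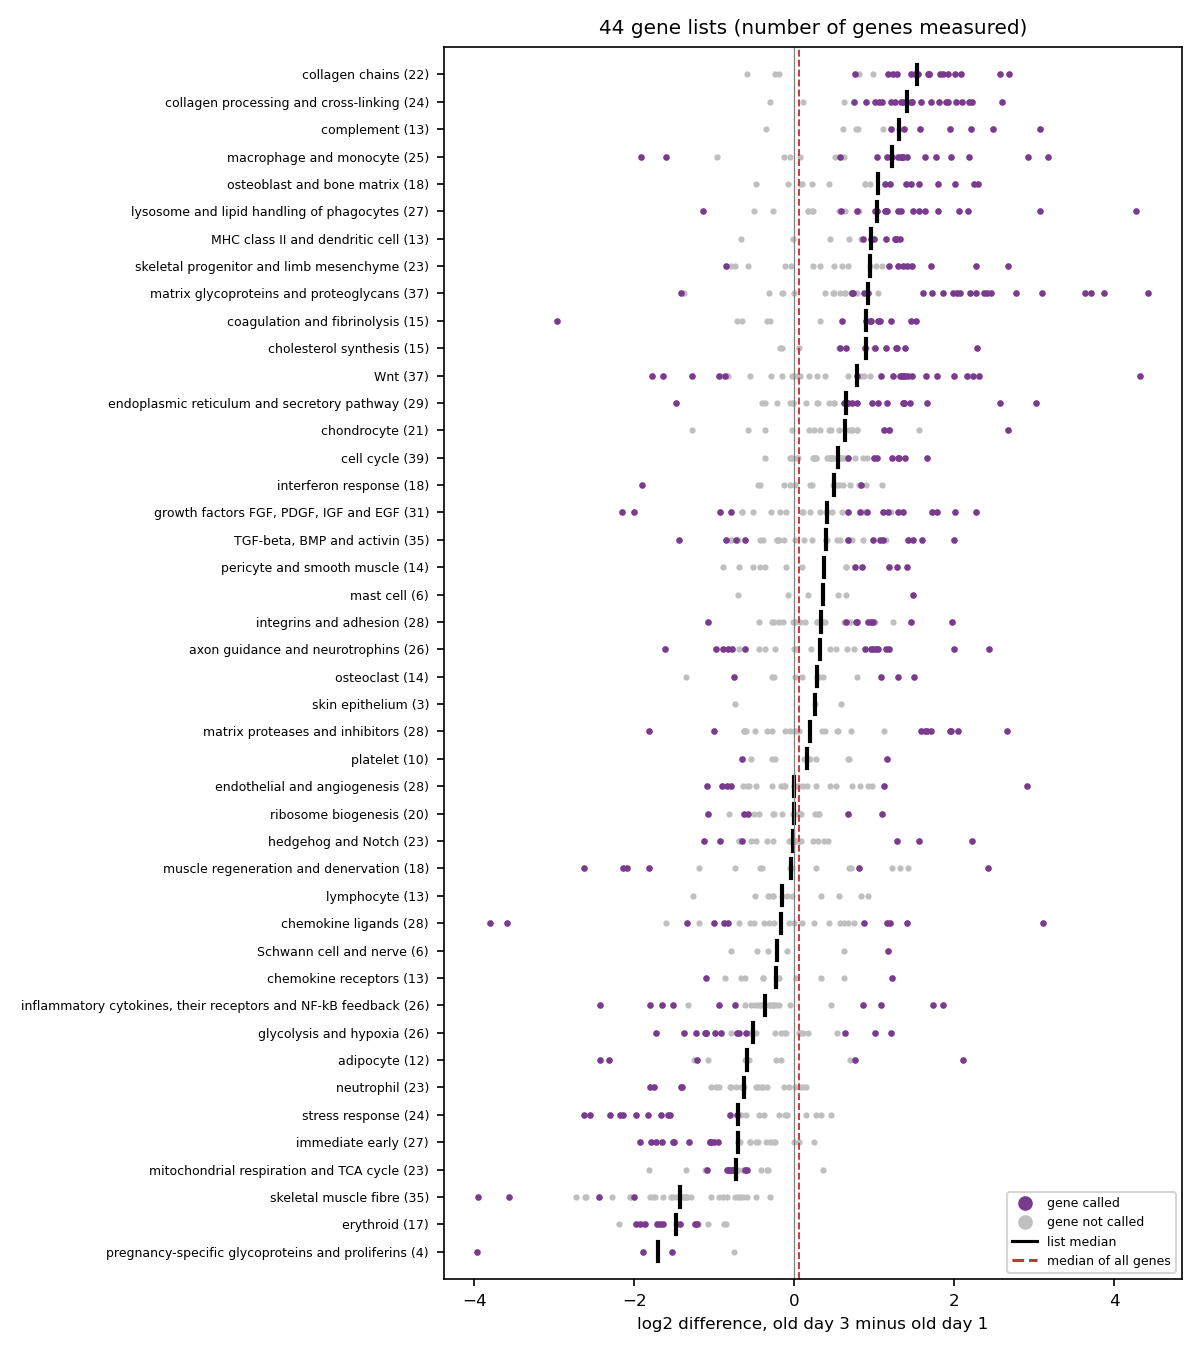
Difference between day 3 and day 1 in old mice for each measured gene of 44 lists, with called genes in purple, other genes in grey, a black tick at the list median and a dashed red line at the 0.056 median of all genes. Collagen lists lie at the top with medians of 1.529 and 1.409, and erythroid and muscle fibre lists near the bottom with -1.481 and -1.427.

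Of the neutrophil attractants that act on the receptor Cxcr2, Cxcl1, Cxcl2 and Cxcl3 fell, and Cxcl5, at 9.21, 9.50 and 10.18 and then 9.26, 10.13 and 9.81, overlapped and was not called, and neither was the platelet-derived Ppbp. Cxcl3 measured 9.56, 11.39 and 12.01 on day 1 and 6.98, 7.50 and 7.10 on day 3, a 13.9-fold fall (adjusted p = 3.71e-05). Cxcl2 measured 9.37, 10.86 and 11.60 and then 6.75, 7.34 and 6.96 (adjusted p = 0.000805). In both genes day 1 replicate 1 was the lowest of its day, yet still above all 3 arrays of day 3. Cxcl1 measured 8.54, 9.18 and 9.57 and then 7.41, 8.30 and 7.55, a fall of 1.34 ± 0.33 (adjusted p = 0.00587) that was no longer called with arrays centred on their medians. By day 5 the old group means of Cxcl3, Cxcl2 and Cxcl1 were 5.76, 6.13 and 7.07.

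The 250 bases before the RefSeq transcript start of these 3 genes and of Il6 are shown because the 4 genes fell together and their promoters contain the letters of a site for the inflammatory transcription factor NF-kappa B. Sequences are on the plus strand of GRCm38.p6, 5' to 3', and capitals mark matches on either strand to GGG and TTCC with any 3 bases between them, overlapping matches merged. The windows are chr5:90890995-90891244 for Cxcl1, chr5:90903649-90903898 for Cxcl2, chr5:90785851-90786100 for Cxcl3 and chr5:30012864-30013113 for Il6.
Cxcl1: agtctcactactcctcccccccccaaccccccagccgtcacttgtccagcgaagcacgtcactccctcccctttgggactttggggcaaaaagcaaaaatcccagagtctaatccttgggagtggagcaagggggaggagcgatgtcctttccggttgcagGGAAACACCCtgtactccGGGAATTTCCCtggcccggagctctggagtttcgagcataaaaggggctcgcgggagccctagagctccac
Cxcl2: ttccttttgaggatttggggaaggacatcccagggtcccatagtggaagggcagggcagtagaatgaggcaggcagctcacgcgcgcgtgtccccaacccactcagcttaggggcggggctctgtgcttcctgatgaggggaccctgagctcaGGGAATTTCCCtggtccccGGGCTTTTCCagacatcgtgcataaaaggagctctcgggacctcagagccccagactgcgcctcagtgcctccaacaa
Cxcl3: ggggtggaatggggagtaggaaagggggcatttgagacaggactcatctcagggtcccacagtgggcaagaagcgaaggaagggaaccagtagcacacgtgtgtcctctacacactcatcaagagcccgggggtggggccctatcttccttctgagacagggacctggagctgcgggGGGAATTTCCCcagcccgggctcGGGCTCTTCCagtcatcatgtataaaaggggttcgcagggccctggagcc
Il6: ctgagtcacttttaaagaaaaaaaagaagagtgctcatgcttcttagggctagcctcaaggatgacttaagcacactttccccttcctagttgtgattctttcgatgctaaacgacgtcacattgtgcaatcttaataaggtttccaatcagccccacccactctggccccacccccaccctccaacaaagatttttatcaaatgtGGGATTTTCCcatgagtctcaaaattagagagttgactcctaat

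Cxcl1, Cxcl2 and Cxcl3 each held 3 matches in 2 separate stretches, and Il6 held 1 match. The first bases of the matches lay 89, 71 and 70 bases before the start in Cxcl1, 97, 96 and 78 in Cxcl2, 73, 72 and 50 in Cxcl3 and 44 in Il6. Over the windows of 27025 genes the letters occurred in 5.31%, and over 10410 genes tested on the arrays in 6.06%. They occurred in 5 of 19 chemokine ligand genes with a window, also in Ccl9 and Cxcl10, which differed by -0.01 ± 0.36 and 0.75 ± 0.36 and were not called. They occurred in 6 of 23 genes of the cytokine list, where besides Il6 they were in Il1r1, which rose by 1.73 ± 0.36, and in Csf1, Il1rn, Nfkbia and Tnfaip3, which were not called. A match is a match of letters, not a shown binding site.

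**Figure D3:**
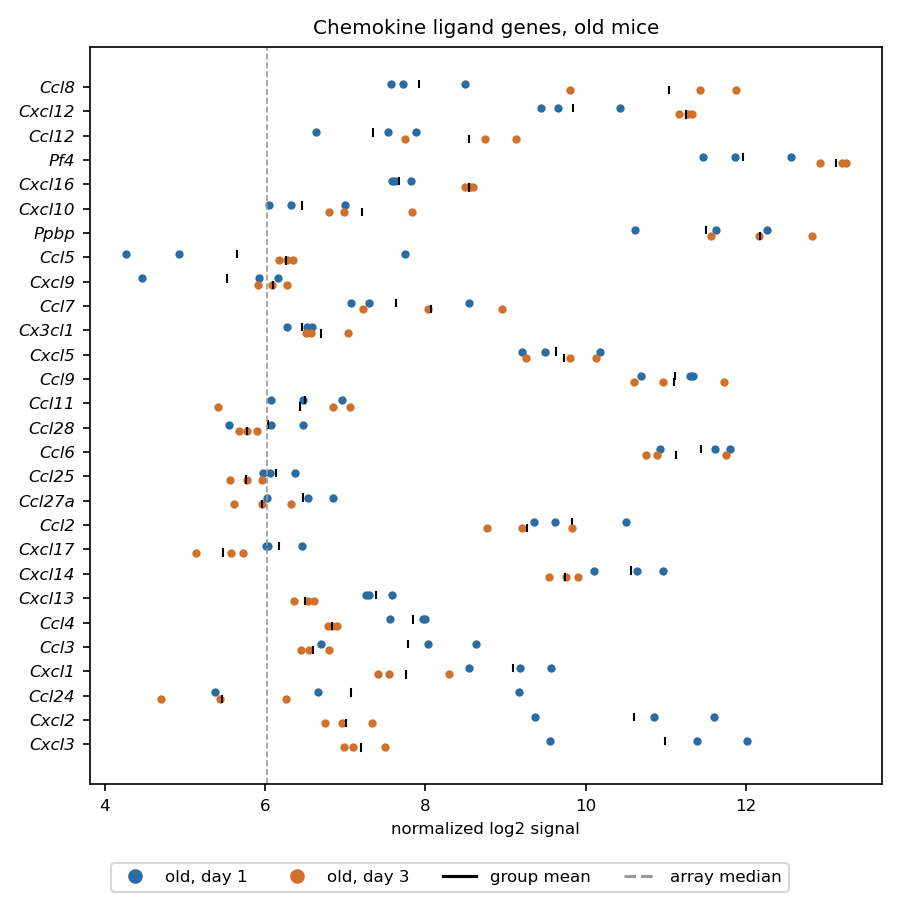
Normalized log2 signal of 28 chemokine ligand genes in old mice, ordered by the difference, with 1 point per array, black ticks for the mean of 3 arrays and a dashed line at the array median. Ccl8 at the top moved from 7.57 to 8.49 on day 1 up to 9.80 to 11.88 on day 3, while Cxcl2 and Cxcl3 at the bottom moved the other way.

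Chemokine ligands as a list did not move in 1 direction. Of 28 measured, 5 rose and 6 fell, against 18.4% and 11.9% of all genes, and the median was -0.159. With arrays centred on their medians the median was 0.283, against 0.47 for all probe sets, and 7 rose and 3 fell, while 10 fell with the values as deposited. Ccl8, which attracts monocytes, measured 8.49, 7.72 and 7.57 on day 1 and 9.80, 11.88 and 11.43 on day 3, a rise of 3.11 ± 0.54 (adjusted p = 0.000551). Cxcl12, the stromal chemokine that retains stem cells through Cxcr4, measured 9.45, 10.43 and 9.66 and then 11.33, 11.16 and 11.28. Pf4, stored by platelets and also expressed by macrophages, rose by 1.16 ± 0.25. Day 3 lay above day 1 on every array for these 3 genes. Ccl12 and Cxcl16 rose by 1.19 ± 0.43 and 0.87 ± 0.29, with adjusted p of 0.0438 and 0.0332. The count of rising ligands was 3 without old day 3 replicate 2 or replicate 3. The call of Ccl12 was lost without day 1 replicate 1 or 2 or day 3 replicate 2 or 3 (adjusted p = 0.0631 to 0.184), and that of Cxcl16 without any 1 array but day 1 replicate 1 (0.0644 to 0.089).

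Ccl4, a macrophage inflammatory protein, fell by 1.00 ± 0.25 and Cxcl13, a B cell attractant, by 0.88 ± 0.18. Cxcl14, a chemokine of epithelium and stroma, fell by 0.83 ± 0.24 (adjusted p = 0.016, but 0.0828 without day 1 replicate 3, 0.0637 without day 3 replicate 1, 0.0763 with the values as deposited and 0.917 under median centring). Ccl4 also lost its call under that centring (0.092). The main monocyte attractant Ccl2 measured 9.36, 9.62 and 10.50 on day 1 and 8.77, 9.83 and 9.21 on day 3, so its days overlapped and the difference of -0.55 ± 0.43 was not called. Ccl7, Ccl6 and Ccl9 also overlapped, with differences of 0.43, -0.31 and -0.01. By day 5 the old mean of Ccl2 was 7.28. Among 13 receptors Cx3cr1, a marker of patrolling monocytes and resident macrophages, rose by 1.22 ± 0.29 and the scavenging receptor Ackr1 of venules fell by 1.11 ± 0.29. Without day 1 replicate 1, 4 receptors fell, with the values as deposited 2 rose and 3 fell, and under median centring 3 rose and 0 fell, Ackr1 then having an adjusted p of 0.301.

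Inflammatory cytokine genes moved both ways. Of 26 in the list with their receptors and feedback inhibitors, 6 fell and 4 rose, against 11.9% and 18.4% of all genes. The list median was -0.359. Under median centring it was 0.284, and 3 fell and 6 rose. Il6, the cytokine of the acute phase, measured 8.06, 10.10 and 10.49 on day 1 and 6.48, 7.70 and 7.18 on day 3 (adjusted p = 0.00235). The days did not overlap, and day 1 replicate 1 was the closest of its day to day 3. Osm, a cytokine of the same family, fell by 1.65 ± 0.32 and the decoy receptor Il1r2 by 1.81 ± 0.40. Il10ra, the receptor of the anti-inflammatory cytokine IL-10, rose by 1.86 ± 0.43 and the signalling receptor Il1r1 by 1.73 ± 0.36. Without old day 1 replicate 1, 10 members fell.

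The level of neutrophil genes varied widely on day 1. The 23 genes averaged 9.64, 11.19 and 10.98 on day 1 and 10.22, 9.85 and 9.81 on day 3, so that replicate 1 of day 1 was the lowest of all 6 arrays. Of these genes 4 fell and 0 rose, against the 11.9% of all genes that fell, and 2 fell under median centring. The 4 were the decoy receptor Il1r2, the histamine-forming enzyme Hdc, the iron-binding lipocalin Lcn2 and Trem1, an amplifier of neutrophil activation. Trem1 measured 8.16, 8.93 and 9.12 and then 7.34, 7.49 and 7.14 (adjusted p = 0.000882). Ltf, the lactoferrin of neutrophil granules, ranged from 10.77 to 13.05 on day 1 and from 10.57 to 12.40 on day 3 and was not called. The count of 4 became 9 without day 1 replicate 1, and 2 without day 1 replicate 2 or 3 or without day 3 replicate 2 or 3. It was Hdc and Lcn2 that lost their calls in those 4 fits, with adjusted p of 0.0564 to 0.0944 and of 0.107 to 0.133, and they were not called under median centring (0.0836 and 0.109).

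Macrophage genes rose together. Of 25 measured, 17 rose, and Retnla and Cd14 fell, with a median of 1.219, where 18.4% of all genes rose. Ms4a7, a tetraspan gene of mature macrophages, measured 7.42, 7.50 and 6.73 on day 1 and 10.14, 10.67 and 10.37 on day 3, a 9.06-fold rise. Aif1, an actin-bundling protein of macrophages, went from 6.51, 7.17 and 6.05 to 9.31, 9.60 and 9.60. Folr2, Mrc1 and Clec10a, a folate receptor and a pair of lectins of tissue-resident and repair macrophages, rose by 2.19 ± 0.38, 1.96 ± 0.26 and 1.77 ± 0.30. Retnla, a product of alternatively activated macrophages, fell by 1.92 ± 0.47. Only 1 member fell without day 1 replicate 2 or 3 or day 3 replicate 3 or under median centring, and the adjusted p of the 6 genes with values here was lowest for Ms4a7 (5.01e-06) and highest for Retnla (0.00651).

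Genes for the digestion of debris and lipid rose beside them. Of 27 lysosomal and lipid-handling genes, 17 rose and the lipase gene Lpl fell, with a median of 1.037. Apoe, the lipoprotein that exports cholesterol from macrophages, measured 9.05, 10.56 and 9.77 on day 1 and 13.06, 12.96 and 12.56 on day 3. Fabp5, a fatty acid carrier, was near-uniform on day 3 at 12.90, 12.90 and 12.88 after 10.66, 11.18 and 10.32. The membrane glycoprotein gene Gpnmb rose by 2.06 ± 0.36, the cysteine protease Ctsh by 1.80 ± 0.29 and the acid lipase Lipa by 1.63 ± 0.22. When day 1 replicate 1 was left out, or under median centring, 0 members fell.

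Complement genes showed the same direction, with 7 of 13 higher, 0 lower and a median of 1.307, and 12 higher under median centring. The 3 chains of C1q, which opens the classical pathway and is made by macrophages, rose by 3.07 ± 0.32 for C1qa, 2.49 ± 0.28 for C1qc and 2.21 ± 0.25 for C1qb. C1qa measured 7.56, 9.23 and 8.01 and then 11.23, 11.56 and 11.23, the highest day 1 array being replicate 2 in each chain. The anaphylatoxin receptor C3ar1 rose by 1.95 ± 0.22 and properdin, Cfp, by 1.57 ± 0.24. On 11 of 13 genes all 3 arrays of day 3 lay above day 1, which held for 25.4% of all genes.

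Of 13 MHC class II and dendritic cell genes 8 rose and 0 fell, with a median of 0.958, and with the values as deposited 5 rose and 1 fell. Only 6 exceeded the array median on all 6 arrays, and of those 4 rose and 0 fell. H2-Eb1, a class II chain, measured 8.69, 9.85 and 8.73 and then 10.11, 10.43 and 10.55. Its chaperone Cd74 rose by 1.00 ± 0.25, the dendritic cell genes Flt3 and Cd209a by 1.33 ± 0.35 and 1.28 ± 0.30 and the activation marker Cd83 by 1.26 ± 0.31. Flt3, Cd209a and Cd83 were not called with the values as deposited (adjusted p = 0.143, 0.052 and 0.0665). Flt3 and Cd83 lay below the array median on every day 1 array, at 4.96 to 5.44 and 4.79 to 5.83. Lymphocyte genes gave 0 calls among 13, and 1 rise under median centring. Ighm, the IgM heavy chain, measured 11.55, 13.71 and 12.44 and then 11.95, 11.49 and 10.45, with overlap.

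The call of interferon-induced genes depended on the scaling, with 1 of 18 higher as reported and 10 higher under median centring. Of the 18, Ifih1, an RNA sensor, rose by 0.83 ± 0.29 (adjusted p = 0.0405, but 0.09 to 0.211 without day 1 replicate 3 or day 3 replicate 2 or 3, where 0 members rose), and Rsad2, an antiviral enzyme, fell by 1.90 ± 0.45. Without day 1 replicate 1, 4 members rose, without day 3 replicate 1, 2 did, and without day 1 replicate 3, 2 fell. Mx1, an antiviral GTPase, measured 7.25, 5.87 and 5.09 and then 6.65, 7.27 and 7.59, where day 1 replicate 1 overlapped day 3. Of 6 mast cell genes the protease Mcpt4 rose, by 1.49 ± 0.36, and 2 genes rose under median centring.

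Blood cell and clotting genes moved in different directions. Of 17 erythroid genes 9 fell and 0 rose, with a median of -1.481, and for 16 of them all 3 day 1 arrays lay above day 3, against 19.7% of all genes. Under median centring the list's median was -0.783 and 2 fell. Gata1, the master transcription factor of red cell precursors, measured 8.63, 9.23 and 8.23 and then 7.18, 6.65 and 7.13 (adjusted p = 0.00267). Slc4a1, the anion exchanger of red cells, measured 11.47, 12.91 and 11.44 and then 9.25, 9.87 and 10.14 and was not called (adjusted p = 0.0555). Day 1 replicate 2 carried the highest erythroid signal, and without it 4 genes fell, while without day 3 replicate 1 the number was 5. Platelet genes overlapped, apart from Pf4, given above, and the adhesion receptor Selp, which fell by 0.65 ± 0.21. Selp was not called without day 1 replicate 3 or day 3 replicate 1 or 2 (adjusted p = 0.074 to 0.113), and its sign turned with arrays centred on their medians, where 3 platelet genes rose and 0 fell.

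Of 15 coagulation and fibrinolysis genes 9 rose and Thbd fell, with a median of 0.896. Pros1, the protein S cofactor of the anticoagulant pathway, measured 7.34, 7.51 and 7.95 and then 9.31, 9.04 and 9.03 (adjusted p = 1.82e-05). The related ligand Gas6, which bridges dying cells to phagocytes, rose by 1.21 ± 0.23, the inhibitor Tfpi by 1.45 ± 0.34 and the plasminogen activator Plat by 1.07 ± 0.28. Without day 3 replicate 2 the number that rose was 5, and without day 1 replicate 1 the number that fell was 3.

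Genes of the acute injury response fell. Of 27 immediate early genes, which switch on within the first hour of a stimulus, 12 fell and 0 rose, where 11.9% of all genes fell. Their median was -0.705, and -0.249 with arrays centred on their medians, where 6 fell and 2 rose. Dusp1, a phosphatase that ends MAP kinase signals, measured 10.82, 10.62 and 10.99 on day 1 and 8.81, 9.36 and 8.87 on day 3 (adjusted p = 3.46e-05). Nr4a3, an orphan nuclear receptor, went from 7.41, 7.62 and 7.55 to 5.85, 5.89 and 5.66. Egr1, a zinc finger factor induced by growth factors and injury, fell by 1.93 ± 0.42, Atf3 by 1.66 ± 0.25 and Btg2 by 1.51 ± 0.28.

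Stress genes also fell, with 12 of 24 lower, 0 higher and a median of -0.702, or -0.251 with arrays centred on their medians, where 10 fell and 5 rose. Hspa1b and Hspa1a, near-identical heat shock genes that can share probes, measured 9.92, 9.23 and 11.19 and then 7.43, 7.85 and 7.16 for the first, and fell by 2.55 ± 0.37 for the second. The metal-binding metallothionein gene Mt1 measured 13.96, 13.99 and 14.12 and then 11.59, 12.47 and 11.58. Gadd45a, a growth arrest gene, fell by 2.31 ± 0.31 and the redox enzyme Srxn1 by 1.98 ± 0.21. The 5 genes had adjusted p from 9.37e-06 (Srxn1) to 0.000437 (Hspa1b).

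Glycolysis and hypoxia genes had a median of -0.517, which became 0.084 with arrays centred on their medians, below the 0.47 of all probe sets there. Of 26, 11 fell and 3 rose, and under that centring 0 fell and 6 rose. Vegfa, the vessel growth factor induced by hypoxia, measured 8.77, 8.59 and 8.80 and then 7.44, 7.68 and 7.72, and the glucose transporter Slc2a1 10.43, 10.28 and 10.96 and then 9.03, 9.68 and 8.84. Both falls, of 1.11 ± 0.16 and 1.37 ± 0.22, lost their call under that centring (adjusted p = 0.106 and 0.0669). The number that fell was 6 or 7 without day 1 replicate 1 or 3 or day 3 replicate 1 or 3, and 1 rose without day 1 replicate 1 or day 3 replicate 1 or 2.

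Muscle fibre signal was lower on day 3, though few genes were called. All 35 had negative differences with a median of -1.427. For 32 of them all 3 day 1 arrays lay above day 3, against 19.7% of all genes. Yet only Ankrd2, Xirp1, Csrp3 and Ankrd1 fell. The spread in the fit came from all 18 arrays, and the list averaged from 7.0 to 12.51 on the 3 arrays of young day 3. With only the 6 arrays compared 29 of 35 fell, and with the 9 arrays of old mice 33 did. Without young day 3 replicates 2 and 3, a choice made after seeing the data, 18 fell. The number was 2 without day 1 replicate 3 and 2 with arrays centred on their medians, and Csrp3 was called only in the fit without day 1 replicate 2 among those that left out 1 array (adjusted p = 0.0674 to 0.146 in the others). Myh2, a fast myosin heavy chain, measured 13.48, 12.46 and 12.95 and then 11.06, 9.73 and 10.28 (adjusted p = 0.112 in the fit of all arrays).

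Genes of muscle repair went both ways, and under median centring 3 rose and 0 fell, while with the values as deposited 1 rose and 4 fell. Chrna1, a subunit of the acetylcholine receptor that muscle makes again on denervation, rose by 2.43 ± 0.65 (adjusted p = 0.0107). Myf6, a factor of mature muscle fibres, and the atrophy ligases Trim63 and Fbxo32 fell with adjusted p of 0.0368 to 0.0499. These 3 and Actc1 were the members that fell of 18. None fell without day 1 replicate 1 or 3 or day 3 replicate 1 or 2, and 1 fell without day 3 replicate 3, with adjusted p up to 0.117 for Myf6, 0.133 for Trim63, 0.113 for Fbxo32 and 0.111 for Actc1, while 1 rather than 2 rose without day 1 replicate 3 or day 3 replicate 1. Mitochondrial genes, abundant in muscle, fell in 8 of 23 cases and rose in 0, with a median of -0.729 and of -0.067 with arrays centred on their medians, where 0 fell and 1 rose, and with the values as deposited 5 fell and 1 rose. Their count was 3 to 5 without day 1 replicate 1 or 3 or day 3 replicate 1 or 2, 13 without day 1 replicate 2 and 14 with only the 6 arrays compared.

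Collagen genes rose broadly. Of 22 chains measured 17 rose and 0 fell, with a median of 1.529, while 1 fell with the values as deposited. For 19 all 3 day 3 arrays lay above day 1, against 25.4% of all genes. Col5a2, a fibrillar chain that sets the width of collagen fibrils, measured 10.06, 10.27 and 10.67 on day 1 and 13.24, 12.99 and 12.51 on day 3. Col5a1, its partner, measured 9.11, 8.81 and 9.17 and then 12.42, 11.94 and 10.79, a 6.41-fold rise with the widest spread on day 3. Col3a1, the chain of young granulation tissue, rose by 2.02 ± 0.31 and Col8a1, a short-chain collagen of vessels and wounds, by 1.93 ± 0.23. The bone collagen chains Col1a1 and Col1a2 also rose, by 1.68 ± 0.35 and 1.23 ± 0.25, and are named outside the rule for named genes. The 6 chains had adjusted p from 1.38e-05 (Col5a2) to 0.00227 (Col1a1).

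The enzymes and chaperones that build collagen rose with it, 21 of 24 measured, with 0 lower and a median of 1.409. Serpinh1, the chaperone of the collagen triple helix, measured 9.57, 8.90 and 9.44 and then 12.13, 11.95 and 11.63 (adjusted p = 9.71e-06). P3h3, a prolyl hydroxylase, went from 5.29, 5.79 and 5.79 to 8.20, 7.70 and 7.62, from below the array median to above it. Bmp1, which cuts the ends from procollagen, and its enhancer Pcolce rose by 2.10 ± 0.26 and 2.19 ± 0.34. Plod2, which hydroxylates lysines for stable cross-links, rose by 1.93 ± 0.27. In each of these 5 genes the 3 arrays of day 3 lay above day 1.

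Secretory pathway genes rose in 16 of 29 cases, and Dnajb9 fell, with a median of 0.642. Rcn3, a calcium-binding protein of the endoplasmic reticulum, measured 7.53, 7.16 and 7.24 and then 10.78, 10.28 and 9.93, and the retrieval receptor Kdelr3 rose by 2.57 ± 0.20. The disulfide isomerases Pdia5 and Pdia3 rose by 1.65 ± 0.26 and 1.45 ± 0.18, though a second, dimmer probe set of Pdia3 fell by 0.74 ± 0.24. Dnajb9, a chaperone induced by unfolded proteins, went the other way, from 11.50, 10.29 and 10.59 to 8.85, 9.41 and 9.70. With day 1 replicate 1 left out, 2 members fell.

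Among 37 matrix glycoproteins and proteoglycans 21 rose and the hyaluronan synthase Has1 fell, with a median of 0.919. Ogn, a small leucine-rich proteoglycan of bone and connective tissue, measured 7.26, 7.12 and 6.48 and then 10.95, 10.78 and 10.74. Aspn, which binds collagen and restrains TGF-beta, went from 7.24, 7.02 and 6.58 to 10.52, 10.59 and 10.64, with almost no spread on day 3. Srpx2, a secreted sushi-repeat protein, rose by 3.71 ± 0.36, the elastic fibre protein Emilin1 by 3.10 ± 0.30 and the thrombospondin gene Thbs3 by 2.77 ± 0.53. Has1 was 1 of 2 members that fell when day 1 replicate 1 was left out.

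Of 28 matrix proteases and their inhibitors 8 rose, and Timp4 and Adamts1 fell, against 18.4% and 11.9% of all genes. The list median was 0.199. Only 18 exceeded the array median on all 6 arrays, and of those 4 rose and 1 fell, with a median of -0.011. Mmp23, a membrane-anchored metalloprotease, measured 5.46, 5.88 and 6.04 and then 8.93, 8.14 and 8.29. Adamts12 rose by 2.04 ± 0.24, the inhibitor Timp2 by 1.95 ± 0.19 and Mmp11, a protease of stroma, by 1.71 ± 0.28. Timp4 measured 6.40, 6.16 and 7.61 and then 4.50, 5.28 and 4.93, below the array median on day 3. Leaving out day 1 replicate 3 or day 3 replicate 3 gave 1 member that fell, and under median centring 12 rose and 1 fell.

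Genes of skeletal progenitors and limb mesenchyme rose in 8 of 23 cases, and the BMP antagonist Grem1 fell, with a median of 0.948. Only 10 exceeded the array median on all 6 arrays, and of those 4 rose and 0 fell, with a median of 0.85. Prrx1, the transcription factor that marks limb mesenchyme and periosteal progenitors, measured 8.97, 7.93 and 8.26 and then 10.21, 10.03 and 10.06 (adjusted p = 0.000335). Its paralog Prrx2 rose by 2.27 ± 0.33 and Tbx18, a factor of mesenchyme and mural cells, by 2.67 ± 0.28 from below the array median. Thy1, a surface marker of stromal cells, rose by 1.41 ± 0.28. The number that fell was 0 without day 3 replicate 2, 2 without day 1 replicate 2 and 3 with the values as deposited, and under median centring 13 rose and 0 fell.

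Wnt pathway genes, many of them extracellular inhibitors, rose in 16 of 37 cases and fell in 5, with a median of 0.790. Besides Sfrp2 these included the decoy receptor Sfrp1, at 6.62, 6.45 and 6.52 and then 9.12, 8.46 and 8.50, and Dkk3, a Dickkopf family protein, up by 2.24 ± 0.37. Ccn4, a matricellular Wnt target of osteoblasts, rose by 2.31 ± 0.42 and the receptor Fzd2 by 1.79 ± 0.27. Apcdd1, a membrane inhibitor, rose by 1.99 ± 0.30 on its brightest probe set, but another probe set fell by 2.27 ± 0.32, so its direction is uncertain. Of the 37, only 9 exceeded the median on all 6 arrays, and of those 2 rose and 0 fell. With the values as deposited 10 of the 37 rose and 7 fell. The number that fell was 3 without day 1 replicate 2 or 3 or day 3 replicate 2.

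TGF-beta, BMP and activin genes were called in shares near those of all genes (18.4% higher and 11.9% lower), with 8 of 35 higher, 4 lower and a median of 0.392, and under median centring 19 were higher and 1 lower. Fstl1, a secreted follistatin-like protein, measured 9.83, 10.23 and 10.33 and then 12.20, 12.32 and 11.85 (adjusted p = 3.12e-05). Tgfb3, an isoform of TGF-beta, rose by 1.42 ± 0.36 and the pseudoreceptor Bambi by 1.60 ± 0.37, while the activin subunit Inhbb fell by 1.44 ± 0.27. Acvr1, a BMP receptor, gained 1.48 on 2 probe sets and lost 1.17 ± 0.31 on the other, so its direction is uncertain too. The number that fell was 2 without day 3 replicate 1 and 1 without day 3 replicate 2.

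Growth factor genes rose in 11 of 31 cases and fell in 4, with a median of 0.410, and under median centring 18 rose and 3 fell. Igf1, which drives growth of bone and muscle, measured 8.22, 8.25 and 8.27 on day 1 and 9.65, 10.22 and 10.01 on day 3. Pdgfrl and the heparin-binding factor Ptn rose by 2.27 ± 0.25 and 2.01 ± 0.22, and Pdgfc, a mitogen of mesenchymal cells, by 1.78 ± 0.21. Hbegf, an early EGF-family ligand of wounds, went from 9.08, 8.85 and 10.35 to 7.45, 7.43 and 6.93, and Fgf1 fell by 2.00 ± 0.38. In the hedgehog and Notch list the hedgehog co-receptor Gas1 and the signal transducer Smo rose by 2.22 ± 0.35 and 1.29 ± 0.21, with the effector Gli2, and the Notch ligand Dll1 fell by 1.13 ± 0.21, with Shh and Nrarp. Shh was not called without day 1 replicate 1 or any 1 of the day 3 replicates (adjusted p = 0.0551 to 0.188). Of that list's 23 genes 1 rather than 3 fell without day 1 replicate 1 or without any 1 of the day 3 replicates, 5 fell with the values as deposited, and 6 rather than 3 rose under median centring.

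**Figure D4:**
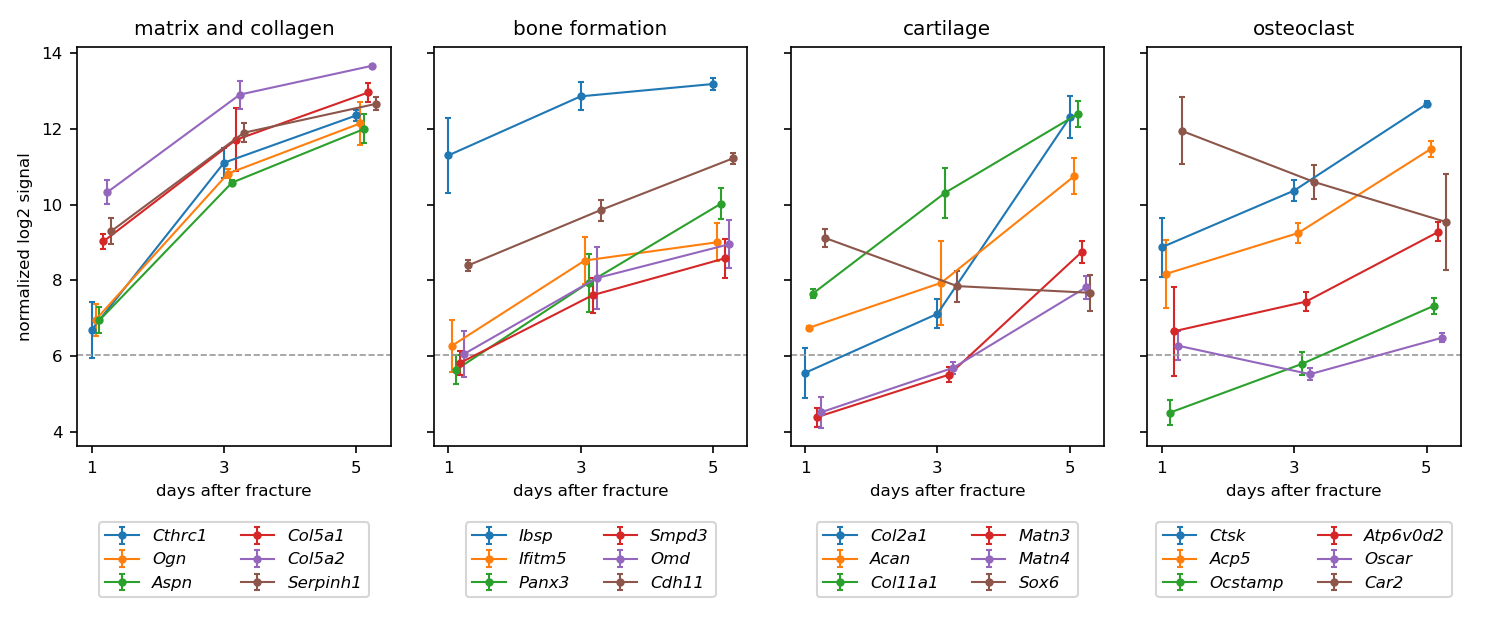
Mean normalized log2 signal with SD of 3 arrays on days 1, 3 and 5 in old mice for 6 genes each of matrix, bone formation, cartilage and osteoclasts, with a dashed line at the array median and points of a day spread sideways for clarity. Mean levels of the matrix and bone genes shown were higher on each later day, while Col2a1 stood at 12.31 on day 5 after lower values on days 1 and 3.

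Bone-forming genes rose in 9 of 18 cases and fell in 0, with a median of 1.046. Only 8 exceeded the array median on all 6 arrays, and of those 3 rose and 0 fell, with a median of 0.917. Ibsp measured 10.18, 11.71 and 12.02 and then 13.29, 12.71 and 12.60 (adjusted p = 0.0059). Panx3, a channel of maturing osteoblasts and chondrocytes, measured 6.07, 5.45 and 5.39 and then 8.75, 7.24 and 7.82, and Ifitm5, a membrane protein of mineralizing osteoblasts, rose by 2.25 ± 0.42. Omd and Smpd3, a bone proteoglycan and a sphingomyelinase needed for mineralization, rose by 2.00 ± 0.46 and 1.79 ± 0.35. In the old day 5 group the means of Ibsp, Panx3 and Ifitm5 were 13.19, 10.03 and 9.01.

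Cartilage genes rose in a share near the 18.4% of all genes: of 21 measured, Col11a1, Matn4 and Matn3 rose and 0 fell. The list median was 0.638, or 0.150 with the values as deposited, where 1 rose and 1 fell, and under median centring 6 rose. Col11a1, a fibrillar chain that osteoblasts also make, measured 7.78, 7.63 and 7.54 and then 11.08, 9.96 and 9.92. Col2a1, the main collagen of cartilage, measured 5.81, 4.81 and 6.03 and then 6.95, 7.55 and 6.84 (adjusted p = 0.064), against a mean of 12.31 on day 5. Acan, the aggrecan core protein, measured 6.68, 6.78 and 6.77 and then 9.16, 7.67 and 6.98, with replicate 1 of day 3 far above the others and an adjusted p of 0.0567. Matn3 and Matn4 stayed below the array median on all 6 arrays, and Matn3 (adjusted p = 0.0428) was not called without any 1 of them (0.056 to 0.117). Both lost their calls with the values as deposited (0.0771 for Matn4 and 0.19 for Matn3).

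Of 14 osteoclast genes 3 rose as reported, near the 18.4% of all genes, and 8 under median centring. As reported, Ctsk, Acp5 and Ocstamp rose and the receptor Oscar fell (adjusted p = 0.0294, but 0.0654 to 0.126 without day 1 replicate 1 or day 3 replicate 1 or 2, where 0 fell). Ctsk, the protease with which osteoclasts degrade collagen, measured 8.02, 9.56 and 9.04 and then 10.32, 10.68 and 10.12, and averaged 12.66 on day 5. Acp5, tartrate-resistant acid phosphatase, rose by 1.09 ± 0.36 (adjusted p = 0.0312, but 0.0518 to 0.168 without day 1 replicate 1 or 3 or day 3 replicate 2 or 3). Atp6v0d2, a proton pump subunit, measured 6.13, 8.00 and 5.82 and then 7.24, 7.71 and 7.36 and was not called.

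Of 28 vessel genes 2 rose and 4 fell, against 18.4% and 11.9% of all genes, with a median of 0.003. Under median centring 11 rose and 0 fell. The 2 that rose were the endothelial sialomucin gene Emcn, by 1.13 ± 0.29 (adjusted p = 0.00866, but 0.054 without day 3 replicate 1), and Aplnr, the apelin receptor of sprouting endothelium, at 8.82, 7.75 and 7.38 and then 11.38, 10.96 and 10.34 (adjusted p = 5.26e-05). The VEGF receptor Flt1 and the tight junction gene Cldn5 fell by 1.09 ± 0.23 and 0.91 ± 0.20, losing their calls with arrays centred on their medians. The number that fell was 2 without day 1 replicate 3 or day 3 replicate 2 or 3, and the number that rose 1 without day 3 replicate 1 and 4 without day 3 replicate 3. Of 14 pericyte and smooth muscle genes 5 rose and 0 fell, among them the contractile genes Acta2 and Tagln by 1.42 ± 0.25 and 1.18 ± 0.23, and 3 rose without day 1 replicate 2 or 3 or day 3 replicate 1 or 3.

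Guidance molecules of axons, which also steer vessels and mesenchyme, rose in 9 of 26 cases and fell in 6, and under median centring in 13 and 1. Only 14 exceeded the array median on all 6 arrays, and of those 2 rose and 5 fell, with a median of -0.121. Epha3, an ephrin receptor of mesenchyme, measured 5.27, 5.67 and 5.44 and then 8.17, 7.81 and 7.70 (adjusted p = 9.72e-07). Sema3b rose by 1.99 ± 0.34 and the semaphorin and VEGF co-receptor Nrp1 by 1.04 ± 0.24, while the neurotrophin Bdnf fell by 1.62 ± 0.38 to below the array median. The number that fell was 3 without day 1 replicate 3. Of 6 Schwann cell genes 2 exceeded the array median on all 6 arrays. Only S100b, which cartilage also expresses, rose, by 1.17 ± 0.33, from 5.45, 4.80 and 5.46 on day 1, below the array median. It was not called without day 1 replicate 2 (adjusted p = 0.0515) or day 3 replicate 1 (0.0569) or with the values as deposited (0.206), and 2 genes of the list rose under median centring.

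Fat genes were mixed. Pnpla2, the lipase that opens lipid stores, measured 10.81, 10.17 and 10.83 and then 8.01, 8.35 and 8.15, and Pparg, a nuclear receptor of adipocytes and macrophages, 4.58, 4.82 and 4.27 and then 6.57, 6.59 and 6.83. Plin4 and Dgat2 fell as well (Plin4 with adjusted p of 0.0561 without day 1 replicate 3 and 0.069 without day 3 replicate 1), Cebpa rose, and the other 7 of 12 genes were not called. Under median centring Plin4 and Dgat2 were not called (0.0788 and 0.206) and 1 gene fell. The number that rose was 1 without day 1 replicate 1 or 3 or day 3 replicate 1 or 2. Skin keratinocyte genes gave 0 calls among 3, with 1 rise under median centring and 1 fall with the values as deposited.

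Sterol synthesis genes rose in 9 of 15 cases and fell in 0, with a median of 0.893. Scd2, a fatty acid desaturase, measured 8.09, 8.63 and 8.03 and then 10.93, 10.26 and 10.40, and Fdps and Cyp51, enzymes of the mevalonate and sterol pathway, rose by 1.38 ± 0.23 and 1.28 ± 0.22. Hmgcs1, the synthase at the head of the pathway, rose by 1.27 ± 0.21, and it was the only one of 10 list genes with a promoter window that held the sterol element letters TCACNCCAC, which 1.22% of all windows held. Integrin and adhesion genes rose in 8 of 28 cases, with the heparan sulfate proteoglycan Sdc2 at 7.08, 6.96 and 6.65 and then 9.24, 8.65 and 8.70, and only the laminin receptor Itga3 fell, by 1.08 ± 0.24 (2 members fell without day 1 replicate 1). Under median centring 16 members rose.

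Cell cycle genes had a count that rested on single arrays and on the scaling. Of 39, 8 rose, near the 18.4% of all genes, and 0 fell, with a median of 0.549. Under median centring 32 rose, with a median of 1.214. Cdk1, the kinase that starts mitosis, measured 7.87, 9.49 and 8.47 and then 9.97, 9.95 and 9.80, and the mitotic kinesin Kif20a 5.26, 7.24 and 6.75 and then 8.38, 8.10 and 7.76. Day 1 replicate 1 was the lowest and replicate 2 the highest of its day for both, and day 3 was even. The count was 28 without day 1 replicate 2, 3 without day 1 replicate 1, and 4 or 5 without day 1 replicate 3 or any 1 day 3 replicate. Ccnd1, the cyclin that links growth factors to cell division, rose by 1.04 ± 0.23.

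Ribosome assembly genes gave few calls as reported, with 2 higher and 3 lower against 18.4% and 11.9% of all genes, and 13 of 20 rose under median centring, with a median of 0.639. Of the 20, Npm1 and Rrp9 rose by 0.67 ± 0.15 and 1.09 ± 0.22, and Rrs1, Nop2 and Mybbp1a fell, with a median of 0.000. Rrs1, needed for the large ribosomal subunit, measured 9.60, 9.49 and 9.66 and then 8.50, 8.52 and 8.49, a fall of 1.08 ± 0.16 that lost its call with arrays centred on their medians. Nop2 and Mybbp1a changed sign under that centring, where 0 genes of the list fell. Mybbp1a was not called without day 1 replicate 3 (adjusted p = 0.0688) or day 3 replicate 3 (0.0886), and 5 genes fell when day 1 replicate 2 was left out.

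The change over this interval was also set against that of young mice, by testing the difference of the 2 changes in the same fit. limma called 67 genes, 0.519% of those tested, with 44 changing more upward in old mice and 23 more downward. Among them were 6 of 37 matrix glycoproteins, 3 of 22 collagen chains and 3 of 24 collagen processing genes. Col5a1 changed by 2.68 ± 0.42 in old and 0.03 in young mice, a difference of 2.65 (adjusted p = 0.0495), Col5a2 by 2.58 and 0.52 (0.0349), and the cross-linking enzyme Plod2 by 1.93 and -0.05 (0.0349). Aspn differed by 2.76 (0.0199), Emilin1 by 2.76 (0.0148), Srpx2 by 2.80 (0.0272) and the growth factor Pdgfc by 2.12 (0.011). Each of these named genes was lower on every old than on every young array of day 1. Col5a1 measured 8.81 to 9.17 in old and 9.83 to 10.87 in young mice on day 1, and 10.79 to 12.42 and 9.55 to 11.42 on day 3. For Aspn these ranges were 6.58 to 7.24 and 8.58 to 9.24, and then 10.52 to 10.64 and 8.79 to 10.51. Collagen chains averaged 8.39 to 8.56 on old and 8.96 to 9.41 on young day 1.

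For the lists, the median changes of old and young mice were 1.529 and 0.032 for collagen chains, 1.409 and 0.286 for collagen processing and 1.046 and -0.041 for bone-forming genes. Macrophage genes changed by a median of 1.219 and 1.251, and none of the 25 was called as differing. On probe sets the count was 164, and single arrays moved it far: it was 6 if old day 3 replicate 1 was left out and 1737 if young day 3 replicate 1 was. It was also 15 without old day 3 replicate 2, 461 without old day 1 replicate 2, 55, 41, 58 and 17 without young day 1 replicates 2 and 3 and young day 3 replicates 2 and 3, and 8 with the last 2 both left out. Muscle fibre genes averaged from 12.80 to 12.97 on young day 1 and from 7.0 to 12.51 on young day 3, so young day 3 was uneven. The Actb ratio of young mice ran from 2.04 to 2.13 on day 1, and was 1.56, 2.52 and 2.37 on day 3. The cre signal of these young day 3 arrays was 10671, 20987 and 24687 units, and their collagen chains averaged 9.95, 8.65 and 8.90. The part of these values in the difference between ages was not tested. Of 22 named genes called here, Erdr1, Mid1 and Pdgfc kept the call in each of the 12 fits that left out 1 array of the 4 groups.

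**Figure D5:**
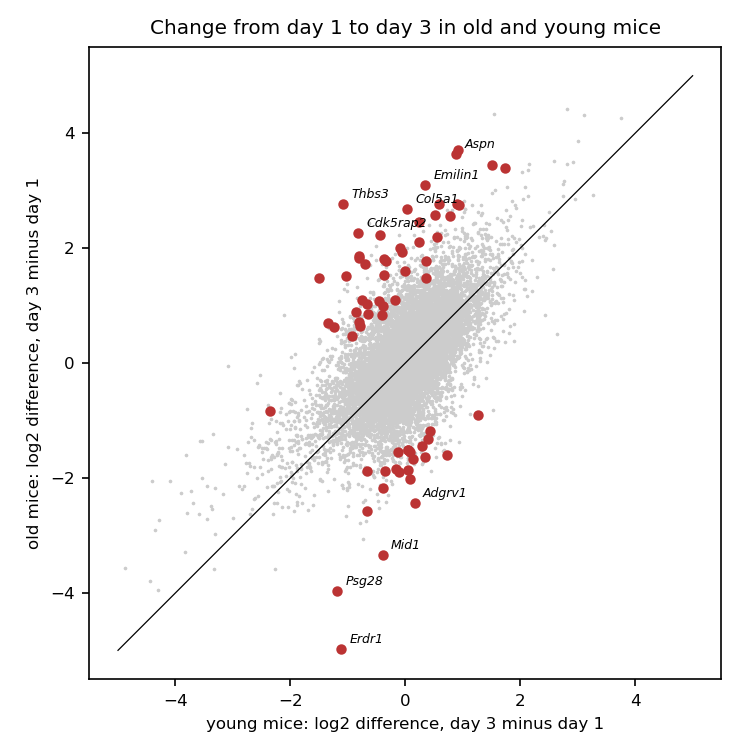
Difference between day 3 and day 1 in old mice against that in young mice for 12921 genes, with the line of equality and the 67 genes called as differing in red. Matrix genes such as Aspn and Emilin1 lie above the line, and Erdr1, Mid1, Psg28 and Adgrv1 far below it.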

How the data were processed

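Total RNA of dissected callus was extracted with Trizol and measured on 18 Affymetrix 430 2.0 mouse genome arrays, per the labels and the design text. The authors deposited linear intensity values for 45101 probe sets, each array scaled to a mean of 150 without its extreme 2% of values at either end, as the values show. The signal algorithm is not given in the sources used here.

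Values were transformed as log2(value + 16) and quantile normalized with limma 3.58.1 in R 4.3.3, since array medians differed by up to 0.77. The 64 control probe sets were left out, and the 27746 probe sets above their array median on at least 3 of 18 arrays were tested. One model with a mean per group was fitted to all 18 arrays (lmFit, eBayes with trend=TRUE, 17.3 total degrees of freedom), with Benjamini-Hochberg adjustment and calls under 0.05. Each gene was represented by the brightest of its tested probe sets. Names came from the platform annotation, which lists 1 gene for 34958 probe sets, several for 932 and no gene for 9211. Of 5928 genes with several tested probe sets, 180 had probe sets called in opposite directions.

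The comparison and the 44 gene lists (918 of 1091 genes measured) were chosen with earlier results of these data known. The named genes were the 15 of largest difference in each direction without overlap, up to 6 per list with the largest absolute difference, all chemokine ligands, 5 in each direction for the difference between ages, and the technical checks. Promoter windows came from RefSeq on GRCm38.p6 and were matched by gene symbol or identifier. Letters of other elements were searched too. Of 21 immediate early genes 0 held the serum response element and 3 the cyclic AMP response element (2.74% of tested genes). The 3 were Btg2 and Dusp1, which fell, and Maff, which was not called. Of 21 stress genes 0 held the metal response element and 2 the heat shock element (0.451% of tested genes), Hspd1 and Hspe1, neither of them called. On data simulated for this comparison, over 27746 probe sets, 0 of 50 changed by 0.5 were called and 13 of 50 changed by 1. Of those changed by 2 and by 3, 45 of 50 and 46 of 50 were called, and 7 of 27546 unchanged ones. In the data 29.8% of probe sets were called, a far larger share than was changed in the simulation, where the adjustment was therefore stricter. These shares are thus not the power of the comparison reported here.

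Alternatives were the values as deposited, median centring, other pseudocounts and filters, leaving out cross-hybridising probe sets, other variance settings, a replicate block, fewer arrays, an added 2-fold threshold and each array left out. The fit without young day 3 replicates 2 and 3 was added after seeing the data.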

Additional observations from a re-analysis of the deposited data

Results flagged for a closer look

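These named genes changed differently in old and young mice between day 1 and day 3, by limma's test of the difference of changes. The difference, old minus young, was positive for Thbs3 at 3.85, the centrosomal gene Cdk5rap2 at 3.08, Nol4l at 2.98, Srpx2 at 2.80, Aspn at 2.76, Emilin1 at 2.76, Col12a1 at 2.68, Col5a1 at 2.65, Pdgfc at 2.12, Col5a2 at 2.06, Plod2 at 1.98, Crabp2 at 1.93, Bmp1 at 1.87, Rrp9 at 1.84, Csrp2 at 1.66 and Cxcl14 at 1.53. It was negative for Erdr1 at -3.86, Mid1 at -2.95, Psg28 at -2.77, the adhesion receptor Adgrv1 at -2.60, the transcription factor Dach1 at -2.33 and Psg23 at -1.53.

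Cdk5rap2 and Thbs3 had changes of 2.26 and 2.77 in old mice and of -0.82 and -1.09 in young mice. Cxcl14 fell in both, by 0.83 in old and 2.36 in young mice. Over the 12 fits that left out 1 array, Cdk5rap2, Crabp2 and Emilin1 were called in 11, Aspn in 10 and Col5a1 in 2. The largest adjusted p over these fits was 0.0386 for Mid1, 0.0383 for Erdr1 and 0.0479 for Pdgfc, and 0.148 for Cxcl14.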

How the results depend on the processing

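Of 224 named genes called, 185 kept the call whichever 1 of the 6 arrays was left out, and 58 passed the 2-fold threshold. Filters left some genes untested in some settings: of the 132 tested in every setting, 95 kept the call in all but the 2-fold threshold. The count of probe sets called, 8266 (4915 higher, 3351 lower), was 12783 (10976 and 1807) with arrays centred on their medians, 4967 (3077 and 1890) with the filter at the 75th percentile, 4303 (2399 and 1904) with probe sets above the median on all 6 arrays and 226 (170 and 56) with the 2-fold threshold. With the values as deposited 5535 were lower. In all, 10040 were called without young day 3 replicates 2 and 3. Leaving out 1 array gave 5177 to 8306 in all, 3150 to 5034 higher and 2027 to 3272 lower. Under median centring 3 calls changed sign: Mybbp1a to 0.22, Nop2 to 0.08 and Selp to 0.03.

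Same-numbered arrays of the 2 days correlated at -0.08, 0.02 and -0.06 in their deviations from the group means, so no pairing by replicate number was seen. With 3 arrays a group these values cannot show that there was none. With the replicate block 8040 probe sets were called, and 105 for the difference between ages. That count, 164 as reported, was 280 with the values as deposited, 2067 with median centring, 108 with a pseudocount of 1, 82 with no filter and 2535 with array weights, 6 to 1737 with 1 array left out and 8 without young day 3 replicates 2 and 3. The causes were not tested. Signal near the array median limits what can be said of dim genes.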
